A study of Mus musculus with 6 samples.

Results

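Cells answer heat and other protein damage, and an overload of unfolded protein in the endoplasmic reticulum (ER), by switching on chaperone and stress genes, and 42 such genes were followed here. They were chosen by name, as chaperones of the cytosol, mitochondria and ER, heat shock factors, and genes of the unfolded protein response and its XBP1 and ATF4 branches. The platform annotation named a probe for 37 of them, and 29 were kept, of 7967 named genes kept on the array. A gene was kept where a probe stood above the negative controls (detection p-value under 0.05) in 3 or more of the 6 arrays, and its brightest such probe stands for it. The cells were hematopoietic stem and progenitor cells of the L-S+K+ phenotype from C57Bl/6 mouse bone marrow, whose sex and age were not given. In the VPA group, 3 cultures were held for 24 h with 1 mM valproic acid (VPA), an inhibitor of histone deacetylases. In the control group, 3 cultures were held for 24 h with the growth factors alone. All 6 cultures had serum of fetal calf, recombinant GM-CSF and murine stem cell factor in the medium, and total RNA of each was hybridised to 1 single-colour Illumina BeadChip.

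In the heat shock response, free unfolded protein draws chaperones away from the transcription factor HSF1, which then binds heat shock elements and switches on cytosolic and mitochondrial chaperones. In the unfolded protein response, the ER membrane proteins IRE1 (gene Ern1), ATF6 and PERK (gene Eif2ak3) sense unfolded protein in the ER. IRE1 splices Xbp1 mRNA, ATF6 is cut to a transcription factor, and both raise ER chaperones and ER-associated degradation, while PERK slows translation through eIF2 and favours ATF4, which raises Ddit3 and amino acid genes. Blood stem cells are known for a low rate of protein synthesis and a sensitivity to misfolded protein. Gene arrays measure mRNA abundance, so Xbp1 splicing, ATF6 cleavage and translation of Atf4 were outside the measurement.

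The promoters show which of these programs the members carry a known element for. RefSeq promoter windows of assembly GRCm38.p6, from 250 bases before to 50 bases after a gene start, were matched by symbol for 34 of the 42 members and searched on both strands. No window was matched for Hsp90aa1, Hsp90ab1, Hspa8, Hspa9, Hsf1, Hyou1, Manf and Atf6. The ER stress element, CCAAT and CCACG with 9 unspecified bases between them, was present in 8 of the 34 members (23.5%), against 37 of 27025 genes (0.137%). It is the element that XBP1 and ATF6 are known to use together with the factor NF-Y, which binds CCAAT. The members that hold it were Hspa5, Hsp90b1, Calr, Canx, Pdia6, Dnajc3, Creld2 and Syvn1. The 7 of these that were kept are printed with the element in capitals, read 5′ to 3′ on the strand of the gene, so that its conserved ends can be compared.
Hspa5: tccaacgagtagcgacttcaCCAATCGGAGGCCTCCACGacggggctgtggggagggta
Hsp90b1: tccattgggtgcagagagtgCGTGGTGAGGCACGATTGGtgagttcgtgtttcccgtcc
Calr: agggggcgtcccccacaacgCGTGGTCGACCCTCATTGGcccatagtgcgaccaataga
Pdia6: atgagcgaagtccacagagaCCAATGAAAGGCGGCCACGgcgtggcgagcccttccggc
Dnajc3: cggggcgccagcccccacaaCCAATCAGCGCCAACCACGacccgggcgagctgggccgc
Creld2: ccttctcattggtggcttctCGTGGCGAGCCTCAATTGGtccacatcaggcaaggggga
Syvn1: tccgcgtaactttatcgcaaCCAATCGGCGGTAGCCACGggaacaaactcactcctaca
These stretches lie at chr2:34772005-34772063 on the plus strand (Hspa5), chr10:86705513-86705571 on the minus strand (Hsp90b1), chr8:84847055-84847113 on the minus strand (Calr) and chr12:17266471-17266529 on the plus strand (Pdia6). Those of Dnajc3, Creld2 and Syvn1 lie on the plus strand at chr14:118937807-118937865, chr15:88819500-88819558 and chr19:6046512-6046570. In Hsp90b1, Calr and Creld2 the element runs on the opposite strand, so that it reads CGTGG first. The CCAAT box on its own, which the element contains, was in 27 of the 34 members (79.4%) and in 11096 of the 27025 genes (41.1%).

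The other elements were found in a part of the heat shock genes and of the branch genes. A heat shock element of alternating units, searched as GAA, TTC, GAA or TTC, GAA, TTC with 2 unspecified bases between units, was found in Hspd1, Hspe1 and Hsph1, 3 of 34 members (8.82%), against 179 of all genes (0.662%). Hspd1 and Hspe1 are read in opposite directions from starts 215 bases apart, and 2 matches that overlap by 8 bases lie between them, the first base 89 bases before the Hspe1 start. ER stress element II, ATTGG and CCACG with 1 base between them, was found in Herpud1 and Dnajb11, 5.88% of members against 12 of all genes (0.0444%), and it contains CCAAT on the other strand. The C/EBP-ATF element TGATGNAA, to which ATF4 dimers are known to bind, was found in Asns, Atf3, Chac1, Herpud1 and Trib3, 14.7% of members against 1219 of all genes (4.51%). The unfolded protein response element TGACGTGG was in 0 of the 34 members and in 193 genes (0.714%). Hspa1a, Hspa1b, Hspa4, Dnaja1, Dnajb1 and Hspb1 had windows without the heat shock element as searched. Atf4, Ddit3, Eif2ak3 and Sesn2 had windows without the C/EBP-ATF element. The shared heat shock region and the elements of an XBP1-side and 2 ATF4-side members are printed with the matched bases in capitals, because the values of these genes are set against each other later.
Hspe1 and Hspd1: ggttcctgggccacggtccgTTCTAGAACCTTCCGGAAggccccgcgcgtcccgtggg
Herpud1: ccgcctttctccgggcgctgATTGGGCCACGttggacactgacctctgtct
Chac1: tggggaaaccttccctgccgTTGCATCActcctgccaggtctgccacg
Asns: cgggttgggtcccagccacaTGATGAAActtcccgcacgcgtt
They lie at chr1:55088039-55088096 on the plus strand, as Hspe1 reads, chr8:94386357-94386407 on the plus strand, chr2:119351029-119351076 on the plus strand and chr6:7693210-7693252 on the minus strand. A match of letters is a description of the window and does not show that a factor was bound.

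Across the arrays, 10846 to 11439 probes were detected. Among kept probes the raw signal had a median of 226 on VPA replicate 1, 474 and 456 on VPA replicates 2 and 3, and 496 to 647 on the control arrays. After normalization VPA replicate 1 correlated with VPA replicates 2 and 3 at r = 0.957 and 0.947 across probes, against 0.991 between those replicates and 0.989 to 0.992 between controls. Members, pathway lists and counts of calls are therefore also given without VPA replicate 1. The labelled cell type was checked on 11 stem and progenitor genes named on the array, all detected, whose summed normalized signal was 14484 to 17647 on VPA arrays and 14709 to 15969 on control arrays. Markers of other blood cells were present too, and each sum below covers all named genes of its list, undetected ones included. The summed signal of 12 neutrophil genes was 45020 to 77314 on VPA arrays and 55228 to 84504 on control arrays. Of the 11 kept, 10 had a log2 change below 0, with a median of -0.75 and 0 called in either direction. Both lymphoid precursor genes kept of 8 (Dntt and Il7r) fell (adjusted p = 0.00524 and 0.00108 by limma), and Il7r was detected on 0 VPA arrays. All 8 lymphoid genes summed to 263 to 299 on VPA arrays and 525 to 660 on control arrays, while Cd3e, Pax5 and Rag2 were undetected on every array. Of 8 mast cell and basophil genes, 4 were kept, and Cma1, Mcpt4, Ms4a2 and Tpsb2 were undetected. All 8 summed to 493 to 637 on VPA arrays and 725 to 897 on control arrays. By limma, Cpa3 of this list (adjusted p = 0.00681) and the macrophage gene Mrc1 (adjusted p = 0.0166) fell. Batf3 of dendritic cells (adjusted p = 0.0128) and the erythroid Epor (adjusted p = 0.0299), both undetected on the control arrays, rose. Others of these lists, not called, went the other way, with log2 changes of 0.97 for Prss34, 0.78 for Adgre1, -0.45 for Tfrc and -0.36 for Car2. Of the kept genes, 3 of 4 mast cell and basophil, 4 of 6 macrophage and dendritic cell and 2 of 5 erythroid genes were below 0. Of 7 plasma cell genes, which belong to a secretory cell with a large ER, Mzb1 alone was kept. Its normalized log2 signal was 6.68, 6.93 and 6.45 on VPA arrays and 6.63, 7.94 and 7.36 on control arrays. All 7 summed to 271 to 315 on VPA arrays and 280 to 454 on control arrays. The sums were 1622 to 2396 on VPA arrays and 2138 to 2963 on control arrays for 8 macrophage and dendritic cell genes, 6 of them kept. For 5 erythroid genes, all kept, they were 2580 to 4184 on VPA arrays and 3102 to 5281 on control arrays. For 6 megakaryocyte genes, 4 of them kept, they were 1950 to 2128 on VPA arrays and 2049 to 2152 on control arrays. Of these lists Ccr2, Itgax and Ppbp were undetected, and of the plasma cell genes Jchain, Pou2af1, Prdm1, Sdc1 and Tnfrsf17 were undetected. The part of these cells in the results that follow was not tested, and in bulk RNA fewer cells of a type and less RNA per cell cannot be told apart.

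With VPA, 0 of the 29 members were called higher or lower by limma at an adjusted p under 0.05, where 3.73% of all 7967 genes were called, 3.41% higher and 0.314% lower. Adjusted p ranged from 0.193 (Atf4) to 0.993 (Asns). At an unadjusted p under 0.05 by the same fit, Xbp1 was higher (3.45% of members, against 11.5% of all genes) and Atf4, Hspa4 and Hsp90aa1 were lower (10.3% of members, against 5.59% of all genes). The changes lay mostly below 0. In 23 of 29 members (79.3%) the log2 change, VPA minus control, was negative, against 52.0% of all genes, and the median was -0.16 (range -0.95 to 0.40), against -0.02 over all genes. Without VPA replicate 1, 0 members were called, 21 of 29 were below 0 (50.7% of all genes) and the median was -0.18, against -0.0047 over all genes. Without control replicate 1 the members' median was -0.09. When arrays were scaled to a common median instead, it was -0.047, where the median of all genes was 0.09, and the signs of Asns, Chac1, Herpud1, Hspa9 and Syvn1 turned. The 3 VPA arrays lay below all 3 control arrays in 7 members (24.1%, against 11.2% of all genes), namely Hspa4, Hsp90aa1, Hspd1, Hyou1, Dnajc3, Sel1l and Atf4. They lay above them in Xbp1 and Pdia6 (6.90%, against 16.7% of all genes).

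The size of change that these arrays leave possible can be read from the intervals. In 22 of the 29 members (75.9%, against 74.7% of all genes) the 95% confidence interval of the limma fit excluded a 2-fold change in either direction. The exceptions were Hspa4, Dnaja1, Hspd1, Hspe1, Calr, Atf4 and Eif2ak3. In 11 members (37.9%, against 31.6% of all genes) it excluded a 1.5-fold change, among them Hspa8, Hsph1, Dnajb1, Hspa9, Dnajb9, Herpud1, Syvn1, Asns and Chac1. These are intervals of the brightest probe. The second probes of Herpud1 and Asns also excluded a 1.5-fold change, but those of Hspa8 (-1.21 to 0.68) and Hspa9 (-0.72 to -0.0053) did not. Second probes of Sel1l (-2.05 to 0.65) and Ddit3 (-1.16 to 0.38) did not exclude a 2-fold change. When limma was given array weights, 3 members were called higher and 8 lower, and 1365 of all genes were then called higher and 1128 lower. The fit of the weights did not converge and gave VPA replicate 2 a weight of 13.0 against 0.090 for VPA replicate 1.

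The sizes of dim members depended on the processing. Without background correction the log2 change was -0.66 for Atf4, -0.28 for Hspa5, -0.24 for Hyou1, -0.20 for Ddit3 and 0.23 for Pdia6. In the deposited log2 values, whose normalization is not known, it was -0.57 for Atf4, -0.23 for Hspa5, -0.19 for Hyou1, -0.16 for Ddit3 and 0.18 for Pdia6. Each deposited value was more than 1.5 times smaller than the -0.87, -0.40, -0.37, -0.38 and 0.34 given here.

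**Figure D1:**
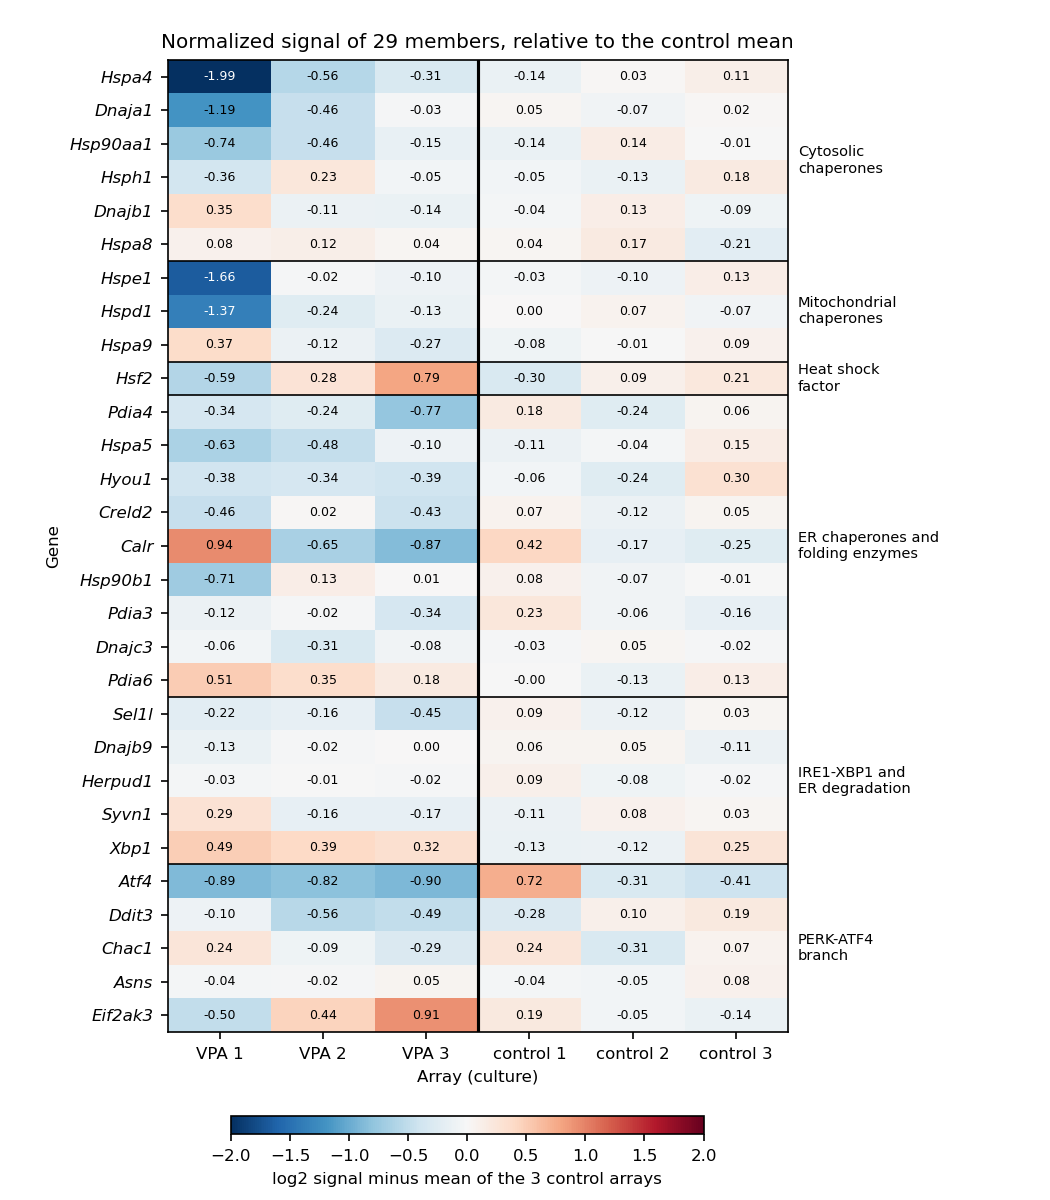
Each column is an array, with the 3 VPA arrays left of the 3 control arrays, and each row is a member, grouped by role. Colour gives the normalized log2 signal minus the gene's mean over the 3 control arrays. Hspa4, Hspe1 and Hspd1 are lowest on VPA replicate 1, Atf4 is low on all 3 VPA arrays and high on control replicate 1, and Xbp1 is above control on all 3 VPA arrays.

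Of the cytosolic chaperones, 4 had negative and 2 positive log2 changes with VPA, and the size of their median depended on VPA replicate 1 and on the processing. Over the 6 kept of 10 listed, the mean normalized log2 signal was 9.83, 10.26 and 10.36 on VPA arrays and 10.42, 10.52 and 10.47 on control arrays, so the groups did not overlap. The median log2 change was -0.26, and -0.18 without VPA replicate 1. It was -0.15 without background correction, -0.14 in the deposited log2 values, -0.079 with arrays scaled to a common median, -0.062 over genes detected on all 6 arrays and -0.014 with no detection filter. Hspa4, a nucleotide exchange factor of the Hsp110 type that resets Hsp70, had a normalized log2 signal of 7.99, 9.42 and 9.67 on VPA arrays and 9.84, 10.01 and 10.09 on control arrays. All VPA values were below all control values, with VPA replicate 1 lower than the others by more than 1 log2 unit. The log2 change was -0.95 ± 0.41 (SE, n = 3 arrays per group, adjusted p = 0.291 by limma) and -0.44 without VPA replicate 1 (adjusted p = 0.109). Hsp90aa1, the stress-inducible Hsp90 chaperone, had 8.71, 8.99 and 9.29 on VPA arrays and 9.31, 9.59 and 9.44 on control arrays. Again the groups did not overlap, by a narrow margin between VPA replicate 3 and control replicate 1. Its log2 change was -0.45 ± 0.19 (1.37-fold lower, adjusted p = 0.285) and -0.31 without VPA replicate 1 (adjusted p = 0.249).

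The other cytosolic chaperones overlapped between the groups. Dnaja1, a J-domain cochaperone that hands clients to Hsp70, was detected on 1 of 3 VPA arrays and 3 of 3 control arrays, with 4.72, 5.45 and 5.89 on VPA arrays and 5.96, 5.85 and 5.93 on control arrays. It was detected on VPA replicate 3 alone of the VPA arrays, so its log2 change of -0.56 ± 0.28 (adjusted p = 0.366 by limma) rests partly on signals not above background. It was -0.24 without VPA replicate 1, -0.25 without background correction, -0.21 in the deposited log2 values and -0.16 with arrays scaled to a common median. Hspa8, the constitutive Hsp70 of the cytosol, had 14.55, 14.60 and 14.51 on VPA arrays and 14.51, 14.64 and 14.26 on control arrays. Its values were nearly level, with a log2 change of 0.08 (95% interval -0.28 to 0.45). Hsph1, the heat-inducible Hsp110 whose window holds a heat shock element, had 10.79, 11.38 and 11.11 on VPA arrays and 11.10, 11.03 and 11.33 on control arrays, a log2 change of -0.06 ± 0.19. Dnajb1, the classical heat-inducible Hsp40, had 12.20, 11.73 and 11.71 on VPA arrays and 11.80, 11.98 and 11.75 on control arrays, a log2 change of 0.03 ± 0.18. In both, VPA and control values were interleaved, and without VPA replicate 1 the signs turned, to 0.09 for Hsph1 and -0.13 for Dnajb1.

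The brightest probes of the mitochondrial chaperonin pair shared a low value on VPA replicate 1. Hspe1, the lid of the Hsp60 chamber, had 10.54, 12.18 and 12.10 on VPA arrays and 12.17, 12.10 and 12.33 on control arrays. Hspd1, the Hsp60 chamber itself, had 12.35, 13.49 and 13.59 on VPA arrays and 13.72, 13.79 and 13.65 on control arrays. VPA replicate 1 lay more than 1 log2 unit below every other array for both probes, whose genes share the promoter region printed above. A second, dimmer Hspd1 probe was not low on that array. The log2 changes were -0.60 ± 0.42 for Hspe1 (adjusted p = 0.498 by limma) and -0.58 ± 0.32 for Hspd1 (adjusted p = 0.405). Without VPA replicate 1 they were -0.06 (adjusted p = 0.797) and -0.18 (adjusted p = 0.370). Hspa9, the mitochondrial Hsp70 that pulls in and folds imported proteins, had 14.21, 13.72 and 13.57 on VPA arrays and 13.76, 13.83 and 13.93 on control arrays. Here VPA replicate 1 was the highest array, and the log2 change of -0.0083 ± 0.20 became -0.20 without it. Hsf2, the heat shock factor that acts with HSF1 and in development, had 6.47, 7.34 and 7.85 on VPA arrays and 6.76, 7.16 and 7.27 on control arrays. Its log2 change was 0.16 ± 0.34 (adjusted p = 0.829), with VPA replicate 1 below all controls and VPA replicates 2 and 3 above them. Without VPA replicate 1 it was 0.53 (adjusted p = 0.171).

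The ER chaperones and folding enzymes, 9 kept of 12 listed, were a little lower in 8 and higher in 1, with a median log2 change of -0.19, and -0.20 without VPA replicate 1. Their mean log2 signal was 9.30, 9.27 and 9.13 on VPA arrays and 9.52, 9.33 and 9.47 on control arrays. Hspa5, the ER Hsp70 known as BiP that holds the stress sensors inactive, had 7.44, 7.60 and 7.97 on VPA arrays and 7.96, 8.04 and 8.22 on control arrays. Only VPA replicate 3 reached the control range, and the log2 change was -0.40 ± 0.18 (adjusted p = 0.321 by limma), or -0.29 without VPA replicate 1. Hyou1, an Hsp110-type exchange factor for BiP, had 7.22, 7.26 and 7.21 on VPA arrays and 7.54, 7.36 and 7.90 on control arrays. The groups did not overlap, and the log2 change was -0.37 ± 0.18 with and also -0.37 without VPA replicate 1 (adjusted p = 0.338 and 0.238). Dnajc3, a BiP cochaperone that also inhibits PERK, had 9.29, 9.05 and 9.28 on VPA arrays and 9.32, 9.40 and 9.33 on control arrays. The groups were apart, but the log2 change was -0.15 ± 0.15 (adjusted p = 0.626), or -0.19 without VPA replicate 1.

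Pdia6, a protein disulfide isomerase that also damps the sensors, was the exception among the ER enzymes. It had 7.91, 7.75 and 7.58 on VPA arrays and 7.40, 7.28 and 7.53 on control arrays, with every VPA value above every control value. The log2 change was 0.34 ± 0.16 (adjusted p = 0.323 by limma) and 0.26 without VPA replicate 1 (adjusted p = 0.265). Pdia4, another disulfide isomerase, lay on the other side of 0, with 9.87, 9.97 and 9.44 on VPA arrays and 10.39, 9.97 and 10.27 on control arrays, a log2 change of -0.45 ± 0.20 (adjusted p = 0.311). Leaving out VPA replicate 1 gave -0.50. Pdia3, the isomerase of glycoproteins that works with the lectin chaperones, had a log2 change of -0.16 ± 0.17, or -0.18 without VPA replicate 1. The lectin chaperone calreticulin (Calr) was detected on 1 of 3 VPA arrays and 3 of 3 control arrays, with 7.13, 5.54 and 5.32 on VPA arrays and 6.61, 6.02 and 5.94 on control arrays. It was highest on VPA replicate 1 and lowest on the other VPA arrays, with a log2 change of -0.19 ± 0.46 over all arrays (adjusted p = 0.844 by limma). Over all arrays it was -0.045 both without background correction and in the deposited log2 values. VPA replicate 1 was the only VPA array with detection, so without it the VPA group has only a bound. With that array left out, the VPA mean of Calr lay at least 0.58 log2 units below the control mean. This bound has no interval and does not hold over all arrays. The adjusted p of 0.0792 by limma without VPA replicate 1 belongs to the fitted change, which uses the undetected signals, and not to the bound. For that bound each VPA array counts at its dimmest detected signal, or at the Calr signal where that is brighter. Hsp90b1, the ER Hsp90 known as GRP94, was lowest on VPA replicate 1 and had a log2 change of -0.19 ± 0.23, or 0.07 without that array. Creld2, an ER stress-induced folding factor, had a log2 change of -0.29 ± 0.18, or -0.20 without it.

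**Figure D2:**
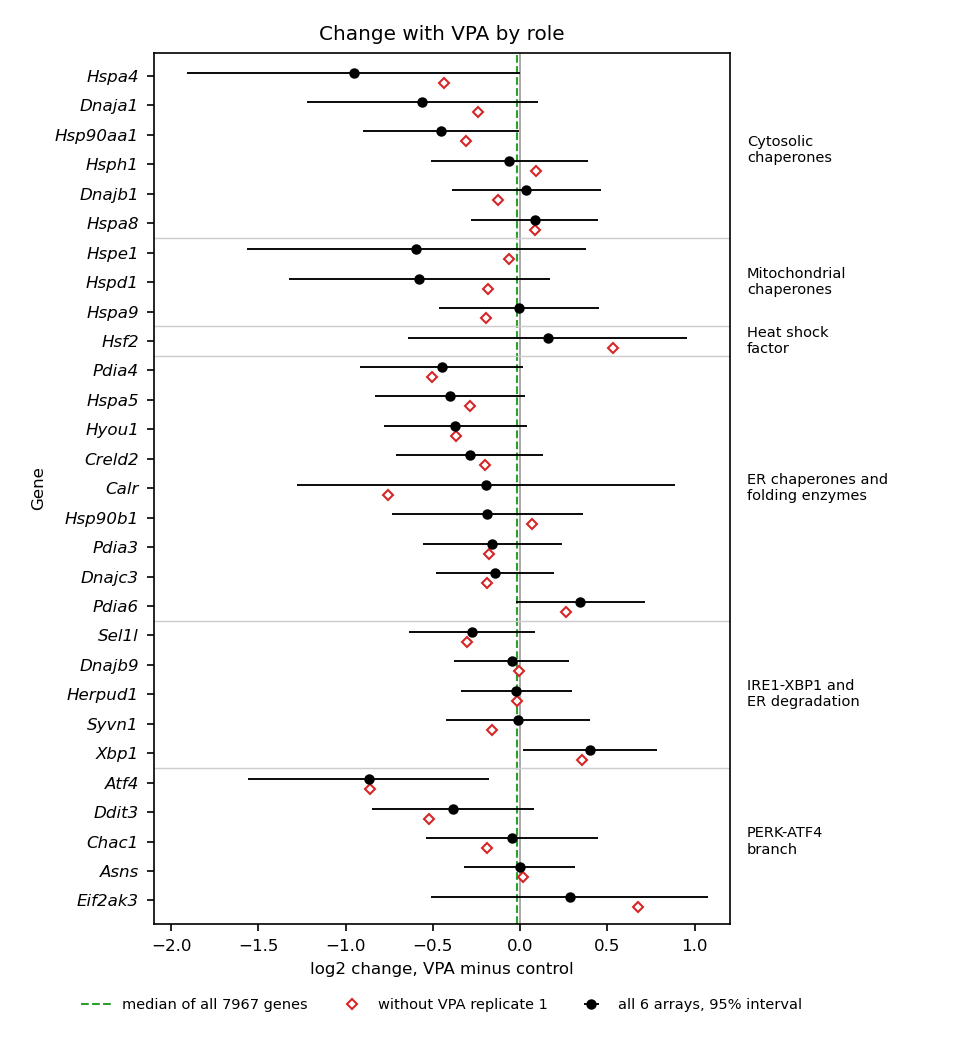
Each row is a member, grouped by role, and the horizontal axis is the log2 change, VPA minus control. Points with bars give the change and its 95% confidence interval over all 6 arrays, open points the change without VPA replicate 1, and the dashed line the median of all genes. The points of 23 members lie below 0, and leaving out VPA replicate 1 moves Hspa4 to -0.44 and Hspe1 to -0.06. The open point of Calr rests on VPA arrays without detection.

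In the IRE1-XBP1 branch and ER-associated degradation, Xbp1 had the highest log2 change and the degradation genes lay at or below 0, and none passed the threshold. Xbp1, whose spliced mRNA encodes the branch's transcription factor, had 12.72, 12.62 and 12.54 on VPA arrays and 12.10, 12.10 and 12.48 on control arrays. Every VPA value was above every control value, and control replicate 3 came within 0.1 log2 units of the VPA group. The log2 change was 0.40 ± 0.17 (1.32-fold higher, adjusted p = 0.274 by limma), 0.36 without VPA replicate 1 (adjusted p = 0.203), and between 0.34 and 0.53 with each array left out in turn. Sel1l, the scaffold of the ubiquitin ligase that removes misfolded ER proteins, had 9.13, 9.18 and 8.89 on VPA arrays and 9.43, 9.22 and 9.38 on control arrays. The groups did not overlap and the log2 change was -0.28 ± 0.15 (adjusted p = 0.410), or -0.31 without VPA replicate 1. Syvn1, the ligase itself (HRD1), had a log2 change of -0.014 ± 0.18, or -0.16 without VPA replicate 1. Herpud1, a partner of that ligase, was level, with 11.85, 11.87 and 11.87 on VPA arrays and 11.98, 11.81 and 11.87 on control arrays, and so was Dnajb9, a BiP cochaperone induced by XBP1, with a log2 change of -0.05 ± 0.14. When VPA replicate 1 was left out, Herpud1 was at -0.02 and Dnajb9 at -0.0091. The 5 genes had a mean log2 signal of 10.84, 10.77 and 10.69 on VPA arrays and 10.76, 10.72 and 10.80 on control arrays, which overlapped.

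In the PERK-ATF4 branch the 2 transcription factors had negative log2 changes and Asns was level, and none passed the threshold. Atf4, the branch's transcription factor, had 7.76, 7.82 and 7.74 on VPA arrays and 9.36, 8.33 and 8.24 on control arrays. The VPA arrays agreed within 0.1 log2 units and lay below all controls, while control replicate 1 stood 1 log2 unit above the other controls. The log2 change was -0.87 ± 0.30 (1.83-fold lower, 95% interval -1.56 to -0.18, adjusted p = 0.193 by limma). It was -0.86 without VPA replicate 1 (adjusted p = 0.155) and -0.51 without control replicate 1. Ddit3, which encodes the stress factor CHOP and is an ATF4 target, had 6.89, 6.44 and 6.50 on VPA arrays and 6.71, 7.09 and 7.18 on control arrays. VPA replicate 1 lay inside the control range and the others below it, with a log2 change of -0.38 ± 0.20 (adjusted p = 0.378) and -0.52 without VPA replicate 1 (adjusted p = 0.104). Asns, asparagine synthetase, an ATF4 target with the element printed above, had 11.76, 11.78 and 11.84 on VPA arrays and 11.76, 11.75 and 11.88 on control arrays. The groups covered nearly the same range, with a log2 change of -0.0029 ± 0.14, or 0.014 without VPA replicate 1. Chac1, a glutathione-degrading target of ATF4, had a log2 change of -0.05 ± 0.21 with interleaved groups, or -0.19 without VPA replicate 1. Eif2ak3, the PERK kinase, had 7.57, 8.51 and 8.99 on VPA arrays and 8.26, 8.02 and 7.94 on control arrays. VPA replicate 1 was the lowest array and VPA replicates 2 and 3 the highest, so the log2 change was 0.28 ± 0.34 (adjusted p = 0.689). Without VPA replicate 1 it was 0.68 (adjusted p = 0.0666), the lowest adjusted p among the brightest probes of the members in that fit. The mean log2 signal of the 5 kept genes of the branch was 8.29, 8.34 and 8.40 on VPA arrays and 8.71, 8.42 and 8.51 on control arrays, which did not overlap, by a narrow margin between VPA replicate 3 and control replicate 2. The mean log2 change was -0.20 and the median -0.05, or -0.19 without VPA replicate 1 and 0.061 with arrays scaled to a common median.

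VPA replicate 1 stood at an end of the 6 arrays for many members, as it did over the array. It was the lowest array in 12 of 29 members (41.4%, against 33.5% of all genes), among them Hspa4, Hspd1, Hspe1, Hsp90aa1, Hsp90b1 and Hspa5. It was the highest array in 7 members (24.1%, against 38.6% of all genes), namely Calr, Chac1, Dnajb1, Hspa9, Pdia6, Syvn1 and Xbp1. The part of this array's low signal in those values was not tested beyond leaving the array out.

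Set side by side, the chaperones had a lower median log2 change over all arrays than the branch genes. The medians of the 2 branches over all arrays were close, -0.05 for PERK-ATF4 and -0.02 for IRE1-XBP1. Over the 18 kept chaperones of 25 listed, the mean log2 signal was 9.99, 10.24 and 10.20 on VPA arrays and 10.44, 10.37 and 10.44 on control arrays, and the groups did not overlap. Of these, 15 had a log2 change below 0, with a median of -0.24, and -0.19 without VPA replicate 1. Over the 10 kept genes of the XBP1 and ATF4 branches, 8 were below 0, with a median of -0.03, and -0.09 without VPA replicate 1. Without that array the PERK-ATF4 branch had the same median as the chaperones to 2 decimals, -0.19, and the XBP1 branch was at -0.02. The median over all genes was -0.02. The difference between chaperones and branch genes was not tested, because the genes of a list are not replicates of the treatment.

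**Figure D3:**
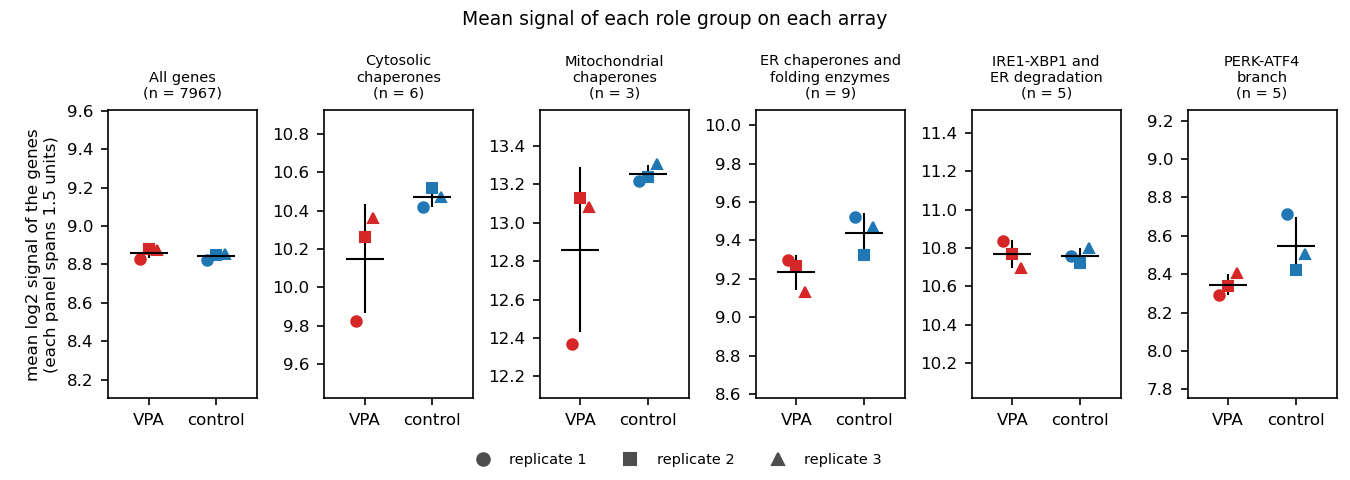
Each panel gives the mean normalized log2 signal of a role's kept genes on each array, with VPA left of control, symbols for replicates, and bars for the group mean and SD (n = 3 arrays). The cytosolic and mitochondrial chaperones are lowest on VPA replicate 1, the XBP1 branch lies between 10.69 and 10.84 on all arrays, and all genes kept, shown for comparison, between 8.82 and 8.88.

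Of the 8 members named on the array but not kept, 7 were undetected on all 6 arrays. These were Hspa1a, the main heat-inducible Hsp70, the small heat shock protein Hspb1, the lectin chaperone Canx, the secreted ER factor Manf, the stress factor Atf3, and the ATF4 targets Trib3 and Sesn2. Hspa1a had a raw signal of 99.2, 107 and 121 on VPA arrays and 142, 109 and 121 on control arrays, and Atf3 95.2, 117 and 92.8 on VPA arrays and 135, 100 and 125 on control arrays. The highest values were those of control replicate 1, the array with the brightest kept probes. Ern1, the IRE1 sensor, was detected on 1 VPA array and 0 control arrays. A signal not above background gives only a bound, and no fold is given for these genes. Hsf1, Atf6, Hspa1b, Hsp90ab1 and Dnajb11 had no probe named in the annotation and were not analysed here.

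For 8 members a second probe was kept, and it did not always follow the brightest one. The second Ddit3 probe had 7.33, 6.08 and 6.17 on VPA arrays and 6.87, 6.81 and 7.07 on control arrays. As with the brighter probe, VPA replicates 2 and 3 lay below the controls and VPA replicate 1 did not, with a log2 change of -0.39 (adjusted p = 0.572 by limma) over all arrays. Without VPA replicate 1 it was -0.79 and passed the threshold (adjusted p = 0.013), the brighter probe not passing. The second Sel1l probe had 6.18, 8.27 and 8.64 on VPA arrays and 8.34, 8.41 and 8.45 on control arrays. VPA replicate 1 was more than 2 log2 units below the rest, and the change of -0.70 became 0.06 without it. The second Hspa9 probe had a log2 change of -0.36 (adjusted p = 0.287) with groups apart, or -0.42 without VPA replicate 1, where the brighter probe gave -0.0083. The second Hspd1 probe had 6.56, 6.16 and 5.91 on VPA arrays and 7.12, 6.44 and 6.68 on control arrays, with VPA replicate 1 the highest VPA array, unlike the brighter probe. Its log2 change was -0.53 (adjusted p = 0.316), or -0.71 without VPA replicate 1 (adjusted p = 0.089), where the brighter one shrank to -0.18. For Hspa8 the second probe was at -0.27, or -0.69 without VPA replicate 1 (adjusted p = 0.171), and the brighter at 0.08 in both cases. The second probe was at -0.17 for Herpud1, -0.15 for Creld2 and 0.16 for Asns, or -0.18, -0.17 and 0.20 without that array, where the brighter ones gave -0.02, -0.29 and -0.0029 over all arrays.

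**Figure D4:**
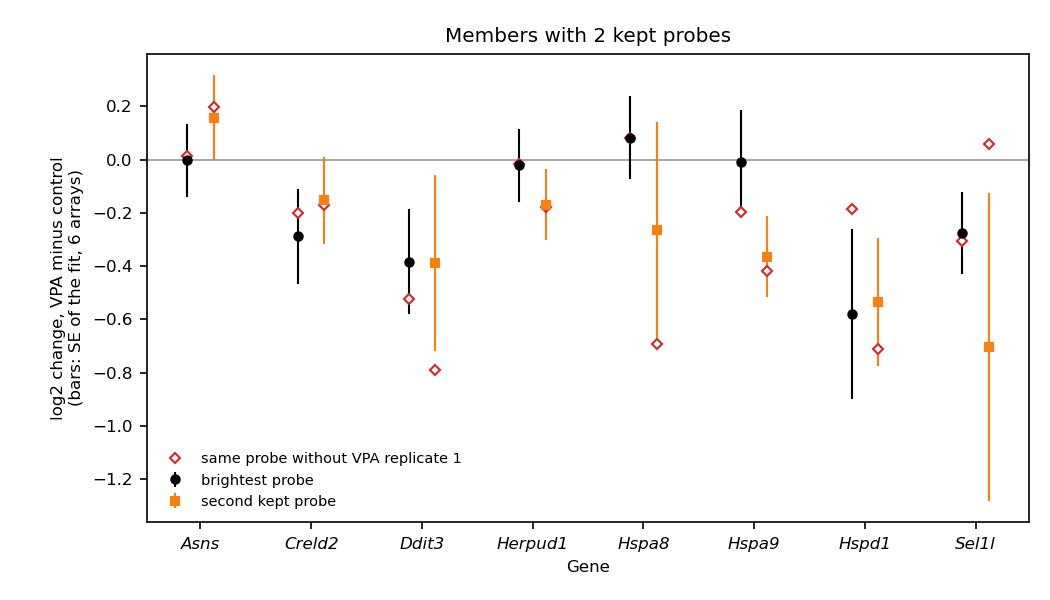
For each of the 8 members with more than 1 kept probe, the log2 change (VPA minus control) of the brightest probe and of the second probe is shown with its standard error, and open points leave out VPA replicate 1. Over all 6 arrays both Ddit3 probes lie near -0.4 and the Sel1l probes at -0.28 and -0.70. Without VPA replicate 1 the Ddit3 probes lie at -0.52 and -0.79 and the Hspa8 probes at 0.08 and -0.69.

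Other genes of the same pathways, listed by role with earlier results of these data known, were mostly not called. Of 29 kept further heat shock proteins and cochaperones, 1 rose and 0 fell, where 3.41% of all genes were called higher, with a median log2 change of 0.02, or 0.06 without VPA replicate 1. That gene was Hspa2, an Hsp70 best known from the testis, with 10.78, 10.20 and 10.15 on VPA arrays and 9.05, 8.88 and 9.05 on control arrays. The groups were more than 1 log2 unit apart, and the log2 change was 1.39 ± 0.20 (adjusted p = 0.0135 by limma), or 1.19 without VPA replicate 1 (adjusted p = 0.00216). Of 33 kept ATF4 targets, 1 rose and 0 fell, beside the same 3.41% of all genes, with a median of -0.10, or 0.0027 without VPA replicate 1. That gene was Slc6a9, a glycine transporter, with 8.37, 8.13 and 8.41 on VPA arrays and 7.30, 7.48 and 7.35 on control arrays, a log2 change of 0.93 ± 0.15 (adjusted p = 0.0214). Leaving out VPA replicate 1 gave 0.89 (adjusted p = 0.0107). Its VPA values were all above its control values. With any control replicate left out, 0 genes of the further lists were called higher.

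The other further lists held no called gene over all arrays. The cytosolic chaperonin TRiC and its helper prefoldin, which fold actin and tubulin, had 10 of 12 kept genes below 0, with a median log2 change of -0.39, and -0.16 without VPA replicate 1. Within it, Cct2 was at -0.86 ± 0.48 (adjusted p = 0.404 by limma) and Cct8 at -0.60 ± 0.37 (adjusted p = 0.445), or -0.32 and -0.13 without VPA replicate 1. The 10 kept mitochondrial chaperones and proteases had a median of -0.18, and -0.08 without that array, with Trap1, a mitochondrial Hsp90, at -0.45 (adjusted p = 0.461), or -0.10 without it. Clpx of the same list was at -0.37 (adjusted p = 0.533 by limma), or -0.035 without VPA replicate 1. The 39 kept genes of XBP1, ATF6 and ER-associated degradation had a median of -0.05, or 0.0048 without VPA replicate 1. Derl2, a channel component of that degradation, was at -0.84 ± 0.46 (adjusted p = 0.401), or -0.25 without VPA replicate 1. Wfs1, an ER membrane protein, was detected on 3 VPA arrays and 0 control arrays. Its mean signal on the VPA arrays was at least 1.24-fold that on the control arrays, a bound without an interval. That bound sets the VPA mean against the lowest detected signal or the probe's own on control arrays. The adjusted p of 0.0616 by limma belongs to the fitted change, which uses the undetected control signals. The 12 kept genes of eIF2 and its kinases and phosphatases had a median of -0.08, or -0.20 without VPA replicate 1. Nck1, an adaptor protein, was at -0.49 ± 0.19 (adjusted p = 0.248), or -0.34 without that array, and Eif2b2, a subunit of the eIF2 exchange factor, at 0.38 ± 0.22 (adjusted p = 0.417), or 0.16 without it.

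Without VPA replicate 1, 6 further genes were higher and 1 lower at an adjusted p under 0.05 by limma, where 6.2% of all genes were higher and 1.59% lower. The genes not called over all arrays were named after their values were seen. Hmox1, heme oxygenase, was at 0.94 (adjusted p = 0.0270), against 0.45 over all arrays (adjusted p = 0.593). Slc1a4, a neutral amino acid transporter, was at 0.75 (adjusted p = 0.0306), against 1.06 over all arrays (adjusted p = 0.106), and Wfs1 and Cbs, the first enzyme of transsulfuration, also passed. Cbs, like Wfs1, was detected on 3 VPA arrays and 0 control arrays, so both calls rest on control signals not above background. Atf5, a transcription factor of the ATF4 kind, had 6.63, 7.51 and 7.59 on VPA arrays and 8.35, 8.33 and 8.35 on control arrays. It was the gene called lower, at -0.79 (adjusted p = 0.00793), and over all arrays its log2 change was -1.10 ± 0.26 (adjusted p = 0.0751).

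**Figure D5:**
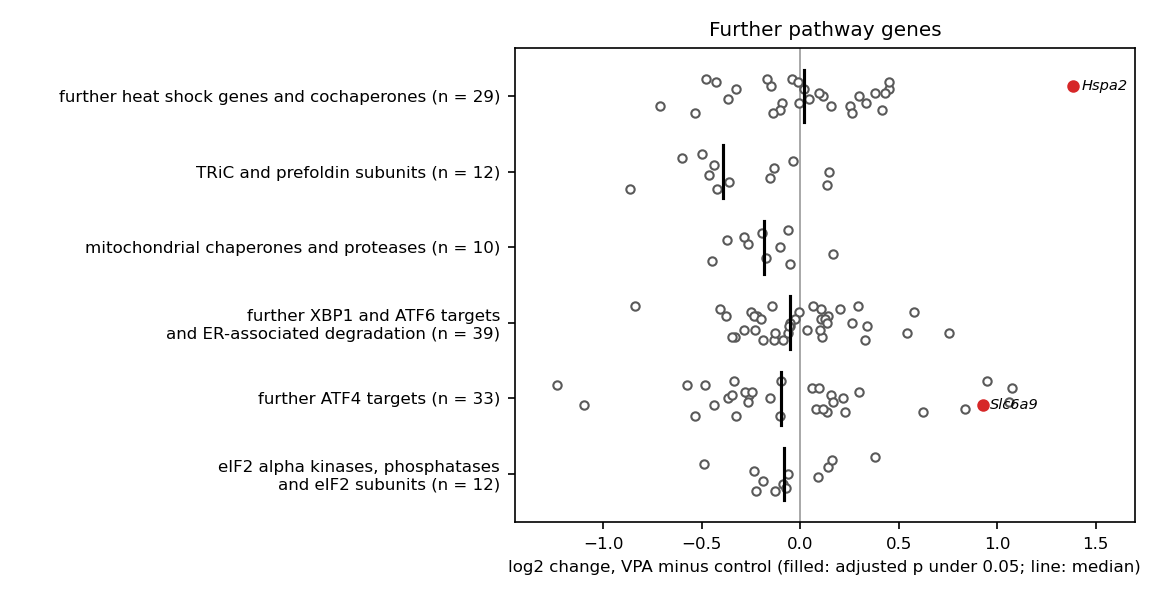
Each point is the log2 change (VPA minus control) of a kept gene of a further pathway list, and the line marks the list's median. Hspa2 at 1.39 and Slc6a9 at 0.93 are the genes called higher by limma over all arrays, and the TRiC and prefoldin list lies lowest, with a median of -0.39.

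Set against the promoter elements, the 7 kept members with an ER stress element had a median log2 change of -0.19 with and also without VPA replicate 1, with Hspa5 at -0.40 at one end and Pdia6 at 0.34 at the other. All 10 kept genes with the element, these 7 included, had a median of -0.15, with 8 below 0, or -0.18 with 7 below 0 without VPA replicate 1. The 38 kept genes with a heat shock element had a median of -0.11, with 23 below 0, or -0.06 with 25 below 0 without VPA replicate 1, where the 3 members were at -0.60 (Hspe1), -0.58 (Hspd1) and -0.06 (Hsph1). The 190 kept genes with the C/EBP-ATF element had a median of -0.0016, or 0.0042 without VPA replicate 1, and Asns, Chac1 and Herpud1 were at -0.0029, -0.05 and -0.02.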

How the data were processed

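Per the file headers, the authors deposited for each array and each of 25697 probes a mean signal intensity and a detection p-value. They also deposited a table of log2 values for these arrays, whose columns share a median. How it was normalized is not given in the sources used here, so it served as an alternative only. GenomeStudio is named, without a version, in the submitters' processing notes.

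Intensities were background corrected by the normal-exponential method of limma 3.58.1 (R 4.3.3), with the negative controls inferred from the detection p-values and an offset of 16, then quantile normalized and put on the log2 scale. Background correction widens the log2 changes of dim probes. The 11115 probes whose detection p-value was under 0.05 in 3 or more of the 6 arrays were kept, and a gene is shown by its brightest kept probe. Names came from the platform annotation, which gives 1 symbol for 23978 probes and none for 1719. VPA (n = 3) was compared with control (n = 3) by lmFit and eBayes over all kept probes. P-values were adjusted by the Benjamini-Hochberg method and called under 0.05. Adjusted p-values in the text come from this limma fit. The design text calls the replicates independent and biological. Precision is limited by the number of arrays, and an exact permutation test of 3 against 3 cannot go below 0.1.

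The members and lists were chosen with earlier results of these data known. Named genes of the further lists are those called over all arrays and otherwise the 2 largest changes of each list, and Hmox1, Slc1a4, Cbs and Atf5 were added after their values without VPA replicate 1 were seen. The 16 alternatives changed the background correction, scaling, detection filter, variance model, probe rule, array weights, replicate block or arrays used. The procedure was tested on simulated data. Promoter windows were taken from RefSeq (GRCm38.p6).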

Additional observations from a re-analysis of the deposited data

How the results depend on the processing

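Over the alternatives, 0 members were called except with array weights, and the members' median log2 change stayed below 0. Each array left out in turn gave a members' median of -0.205 to -0.088, 54 to 494 genes of the array called higher and 5 to 127 lower, and 0 to 6 further pathway genes higher and 0 to 1 lower. Median scaling, which put the median of all genes at 0.09, gave a members' median of -0.047, 4 further genes higher and 1 lower, and turned Asns to 0.10, Chac1 to 0.061, Herpud1 to 0.091, Hspa9 to 0.17 and Syvn1 to 0.065. With no detection filter the members' median was -0.049. With detection required on all 6 arrays, 14 genes of the array were lower. In the deposited log2 values Hspa9 was at 0.011. Without background correction Atf4 was at -0.66, Hspa5 at -0.28, Hyou1 at -0.24, Ddit3 at -0.20 and Pdia6 at 0.23. With a gene's probes averaged, Asns was at 0.077 and Hspa8 at -0.091. Array weights called 1365 genes higher and 1128 lower, 3 members higher and 8 lower and 18 further genes higher and 21 lower, and turned Creld2 to 0.015, Dnajb1 to -0.13, Hsp90b1 to 0.13 and Hsph1 to 0.23. When VPA replicate 1 was dropped before normalization, 477 genes were higher and 120 lower, 6 further genes higher and 1 lower, and Asns was at 0.014, Dnajb1 at -0.12, Hsp90b1 at 0.070 and Hsph1 at 0.088. The cause of these shifts was not tested.

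Nothing in the labels pairs the cultures. Deviations of same-numbered arrays correlated at 0.128, -0.056 and 0.052, and not every array correlated best with its own number. With the replicate number as a block, 178 genes were higher and 13 lower, 1 further gene was higher and 0 members were called.

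Log2 changes near 0 turned sign with 1 array left out. The ranges were -0.028 to 0.039 for Asns, -0.76 to 0.15 for Calr, -0.20 to 0.078 for Chac1, -0.13 to 0.12 for Dnajb1, -0.030 to 0.68 for Eif2ak3 and -0.061 to 0.026 for Herpud1. They were -0.16 to 0.53 for Hsf2, -0.35 to 0.070 for Hsp90b1, -0.022 to 0.17 for Hspa8, -0.20 to 0.12 for Hspa9, -0.21 to 0.089 for Hsph1 and -0.16 to 0.064 for Syvn1. Kept probes had a median raw signal 2.37 times that of undetected probes on VPA replicate 1, against 3.93 to 4.82 on the other arrays. Of the low genes, Dnaja1 was undetected on VPA replicates 1 and 2, and Calr on VPA replicates 2 and 3. The part of the dim signal of VPA replicate 1 in the values of low genes was not tested.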
